A study of Mus musculus with 12 samples.

Results

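The actin cytoskeleton genes described here are 40 genes that build, cut, cap, bundle or anchor actin filaments, with the intermediate filament gene Vim among them. They were chosen by name, and their probe sets were those that the platform annotation assigns to these names. Of the 40 genes, 37 had a probe set listed for them alone, on 91 probe sets, and 36 passed the filter on dim signals, against 11696 genes tested in all. Arpc1b shared its 2 probe sets with another gene, Arpc3 and Actr2 had no probe set of their own in the annotation table and were not analysed here, and Myo1e stayed under the filter level in all arrays, where its log2 signal was at most 5.78. Of the 36 that passed, 33 were above the filter level in all 12 arrays, the exceptions being Pfn2, Zyx and Myo1f.

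The 12 one-colour arrays formed 6 groups of 2. HAFTL is a mouse fetal liver line transformed by the Ha-ras oncogene, and it was given beta-estradiol. C10 is a line with an inducible C/EBPa, a transcription factor that drives myeloid differentiation. It received either ethanol, the vehicle, or beta-estradiol, with RNA taken after 3, 12, 24 or 48 h of the latter. All C10 groups carry the inducible factor, the labels give no time for the vehicle or for HAFTL, and whether C10 is 1 clone is not given in the sources used here. Whether the 2 arrays of a group stem from separate cultures is not stated, so the p-values reflect the spread between these arrays alone, which may be technical.

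Marker genes of both cell types moved over the course. The summed signal of 9 pre-B cell genes lay between 116200 and 116900 in vehicle C10 and between 18710 and 20340 at 48 h, with 9 of 9 called lower. That of 8 macrophage genes went from between 1290 and 1359 to between 116700 and 116800, with 7 of 8 called higher. Of 7 stroma genes, 5 were under the filter level in all arrays, and the summed signal of the list was 360.0 to 395.1 in vehicle C10 and 316.0 to 351.6 at 48 h. The 5 megakaryocyte genes summed to 331.0 to 402.4 in vehicle C10 and 510.1 to 542.2 at 48 h, with 1 of them higher at 48 h. The summed signal of 3 T cell genes was 170.6 to 189.0 and 109.3 to 115.0, and that of the 2 measured erythroid genes 68.9 to 95.2 and 32.0 to 127.4. The part of any of these shifts in the results on actin genes was not tested. In such bulk RNA, fewer cells of a type and less RNA per cell cannot be told apart.

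Actin filaments grow from monomers that profilin and thymosin β4 bind. New filaments start from the Arp2/3 complex, which proteins of the WASP family switch on and which makes branched networks, or from formins, which make unbranched ones. Cofilin and gelsolin cut filaments, capping proteins stop their growth, and plastins, filamin and α-actinin tie them together. Talin and vinculin join filaments to integrins at adhesion sites, and ezrin, radixin and moesin join them to the plasma membrane. Macrophages are known for podosomes, ruffles and phagocytic cups, all of which are built from actin.

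Some of these genes are textbook targets of serum response factor, a transcription factor that binds the CArG box and is itself controlled by the pool of free actin. The 250 bases before the annotated start of 35 of the 40 genes (41 windows) were therefore searched on both strands for the CArG box, for TTGCNNAA, a relaxed form of the site of C/EBP factors, for GAGGAA, a core of PU.1 sites, and for CCAAT. The patterns were counted separately and may overlap. Among all 32851 windows of the RefSeq promoter table, 1.47% held a CArG box, 9.56% TTGCNNAA, 23.3% GAGGAA and 33.8% CCAAT. Among the 35 genes, 4 held a CArG box (Actg1, Arpc4, Vcl and Myo1e), 4 held TTGCNNAA (Wasf2, Pfn1, Actn1 and Evl), 6 held GAGGAA and 11 held CCAAT. Counted by window, as for the table, 4, 4, 6 and 12 of their 41 windows held these patterns. A match is a description of letters and not a site of binding, and the windows below come from RefSeq on build GRCm38.p6. Of the 9 genes that rose and then fell by the tests below, only Vcl and Actg1 were found with a CArG box. Among the other holders, Arpc4 had a log2 change of -0.36 from 12 h to 48 h (limma, adjusted p = 0.079). Myo1e was not tested. A link between the box and these courses was not tested either. Vcl and Actg1 are shown because their signals rose first and then fell back furthest, with the CArG box in capitals. It begins 227 bases before the start of Vcl (chr14:20929148-20929397, plus strand) and 90 bases before that of Actg1 (chr11:120348496-120348745, minus strand).
Vcl: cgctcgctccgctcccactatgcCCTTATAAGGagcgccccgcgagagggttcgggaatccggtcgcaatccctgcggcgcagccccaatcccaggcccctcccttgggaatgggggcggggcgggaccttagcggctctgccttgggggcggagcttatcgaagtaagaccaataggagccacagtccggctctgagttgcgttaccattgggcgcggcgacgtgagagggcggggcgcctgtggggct
Actg1: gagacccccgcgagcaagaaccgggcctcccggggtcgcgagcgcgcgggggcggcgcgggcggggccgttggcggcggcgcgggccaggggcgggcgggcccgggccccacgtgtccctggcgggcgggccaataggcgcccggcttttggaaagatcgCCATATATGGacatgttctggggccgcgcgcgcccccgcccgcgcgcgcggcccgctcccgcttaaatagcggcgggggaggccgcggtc
Actn1 and Evl are shown for TTGCNNAA, again in capitals, because Actn1 rose by 12 h and Evl fell. In Actn1 the capitals hold its complement, read on the other strand. The match begins 103 bases before the start of Actn1 (chr12:80260364-80260613, minus strand). In Evl it begins 171 bases before an annotated start (chr12:108605516-108605765, plus strand). The window of another annotated start of Evl (chr12:108554470-108554719, plus strand) held GAGGAA but no TTGCNNAA.
Actn1: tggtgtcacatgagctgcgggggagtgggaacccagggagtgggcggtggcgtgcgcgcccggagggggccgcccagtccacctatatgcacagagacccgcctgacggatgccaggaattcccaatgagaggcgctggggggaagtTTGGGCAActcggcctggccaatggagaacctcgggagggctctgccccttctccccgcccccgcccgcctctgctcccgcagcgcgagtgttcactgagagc
Evl: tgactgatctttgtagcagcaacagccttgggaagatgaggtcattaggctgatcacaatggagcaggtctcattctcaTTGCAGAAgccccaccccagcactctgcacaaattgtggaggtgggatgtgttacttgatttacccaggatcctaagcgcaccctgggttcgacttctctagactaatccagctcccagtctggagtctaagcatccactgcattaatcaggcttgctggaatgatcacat

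Values below are log2 signals after quantile normalisation, changes are differences of group means on the same scale with their standard error (SE, n = 2 per group), and a gene is called where limma's adjusted p over all 11696 genes is below 0.05. At 3 h, 13 of the 36 genes were higher than in vehicle C10 and 10 were lower, beside 20.9% and 27.3% of all genes (48.3% either way). The counts of higher and lower genes were 23 and 8 at 12 h, beside 22.3% and 28.7% of all genes (51.0%). They stood at 25 and 4 by 24 h, beside 24.2% and 33.3% (57.4%), and 24 and 5 at 48 h, beside 24.2% and 38.2% (62.4%). The median change of the 36 genes was 0.05, 0.59, 0.73 and 0.43, and that of all genes -0.06, -0.08, -0.13 and -0.19. With scaling on the poly-A spike-in transcripts instead, the median of all genes moved to 0.63, 0.65, 0.18 and 0.38, and that of the 36 genes less that of all genes was 0.22, 0.78, 0.95 and 0.71, against 0.11, 0.67, 0.85 and 0.61 with quantile normalisation. With that scaling 11, 22, 14 and 17 of the 36 genes were called higher over the 4 times, and 2, 1 and 1 were called lower from 12 h on. The share of higher genes among all calls was then 84.3%, 86.5%, 64.6% and 69.8%, against 43.4%, 43.7%, 42.1% and 38.8%. The share of all tested genes called with spike-in scaling was not counted, so its counts among the 36 genes have none beside them.

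**Figure D1:**
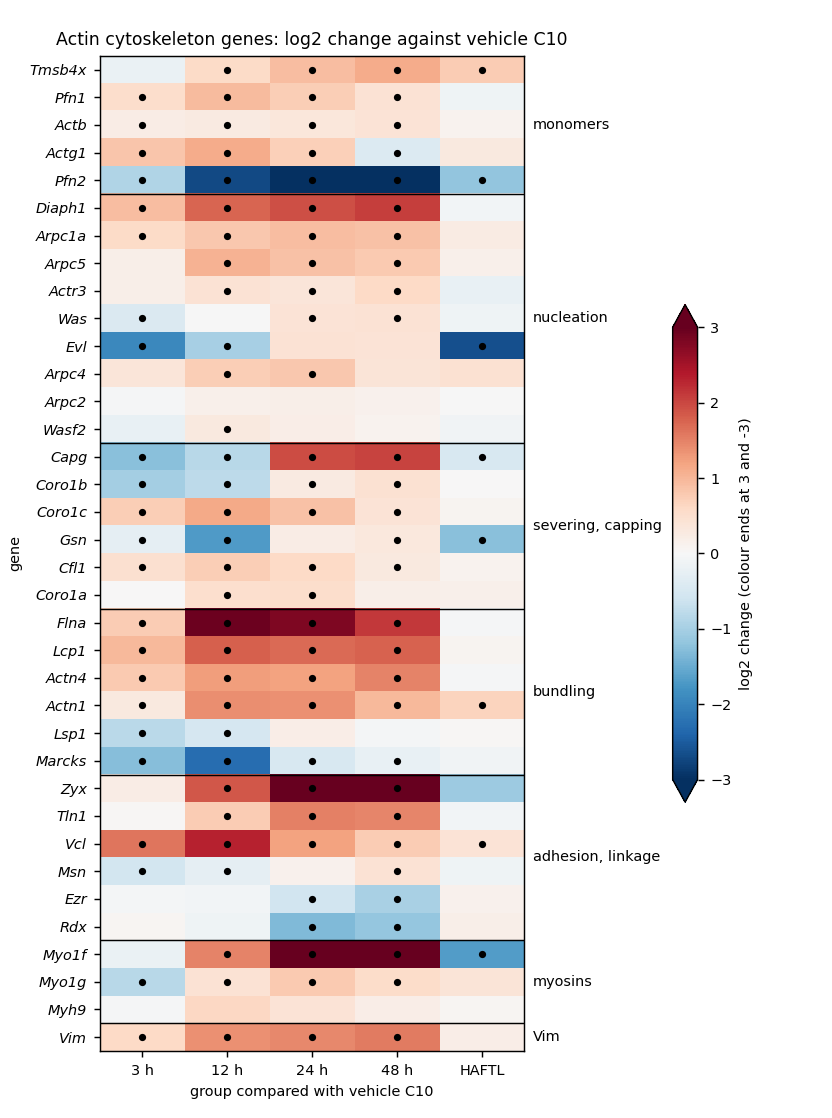
Log2 change of the 36 tested genes against vehicle C10 at 3, 12, 24 and 48 h of estradiol and in HAFTL, by role; colour gives the change and ends at 3 and -3, and a black dot marks adjusted p below 0.05. Higher calls number 13, 23, 25 and 24 and lower calls 10, 8, 4 and 5 over the 4 times, and 3 and 5 in HAFTL.

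Over the whole course, 34 of the 36 genes differed (moderated F test), beside 76.0% of all genes; Arpc2 and Myh9 did not pass on the probe sets used. From 3 h to 12 h 23 of the 36 genes were higher and 3 lower, beside 16.6% of all genes each way (33.2% together). From 12 h to 24 h there were 12 and 5, beside 22.3% and 23.1% (45.4%). From 24 h to 48 h there were 2 and 9, beside 9.47% and 17.9% (27.4%). The last step is uncertain, since its 11 calls dropped to between 5 and 7 when any 1 of the 4 arrays involved was left out. Without the first 12 h array the calls from 3 h to 12 h were 17 instead of 26.

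The early change was taken as 12 h against vehicle C10 and the late change as 48 h against 12 h, which share the 12 h arrays. An error in those arrays moves the early and the late change in opposite directions. Late changes were 14 higher and 12 lower, beside 24.3% and 31.3% of all genes (55.6%). The late change differed from the early one in 26 of the 36 genes, above it in 8 and below it in 18, beside 24.4% and 25.4% of all genes (49.9%). A gene that rose and then stayed level also counts here, as Lcp1 did with a late change of -0.03. On the probe sets used, an early rise was followed by a late fall in 9 genes, beside 10.9% of all genes. In 7 an early fall was followed by a late rise, beside 10.4%. These shares of 36 genes are counts of a chosen list and carry no test of their own. Of these 16 genes, 3 had a call near the threshold that was lost when single arrays were left out. These were the late falls of Arpc5 (adjusted p = 0.052 to 0.11 without either 12 h array or the first 48 h array) and Coro1a (0.057 to 0.066, the same arrays), and the early fall of Msn (0.083 to 0.17 without any of the 4 arrays involved). The replicate block gave the fall of Msn an adjusted p of 0.056. With spike-in scaling both changes passed only for Actg1 and Vcl in the first set and for Marcks in the second. That scaling had wider errors: the mean log2 signal of its 12 spike-in probe sets was 8.39 and 7.40 in the 48 h arrays.

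**Figure D2:**
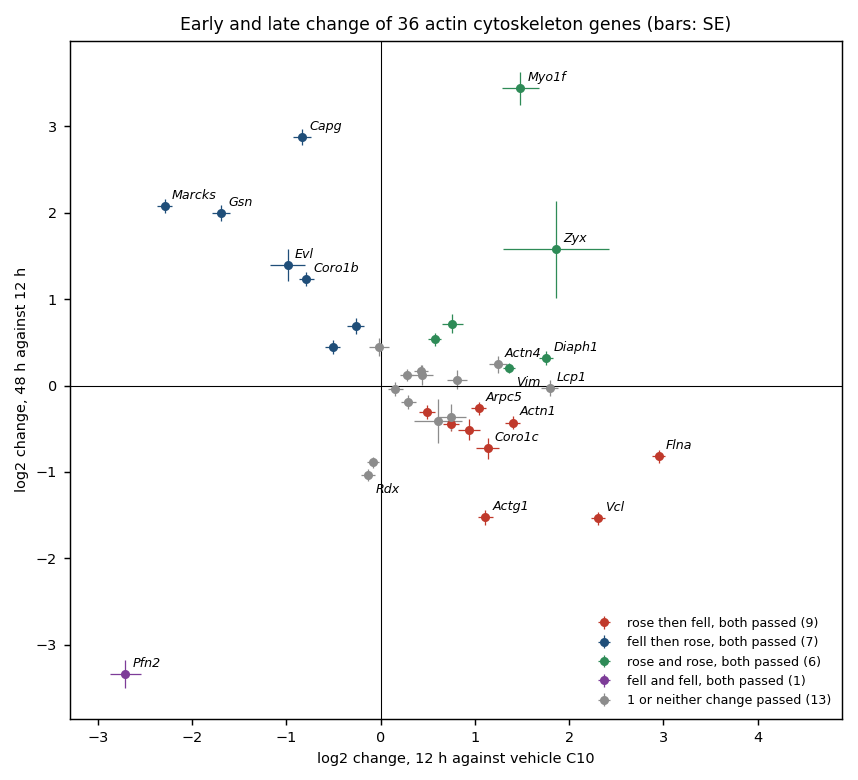
Early change (12 h against vehicle C10, x axis, log2) and late change (48 h against 12 h, y axis, log2) of the 36 genes, with SE bars; both axes share the 12 h arrays. The 9 genes at the lower right rose and then fell, with Vcl, Flna and Actg1 farthest out, and the 7 at the upper left fell and then rose, with Marcks, Gsn and Capg farthest out.

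Of the 5 genes of actin and its monomers, 4 were higher at 24 h and 1, Pfn2, was lower, beside 24.2% and 33.3% of all genes. At 48 h 3 were higher and 2, Actg1 and Pfn2, were lower, beside 24.2% and 38.2%. Counts by role, here and below, were not tested against the shares of all genes. Actg1 encodes γ-actin, one of the pair of actins found in every cell. Log2 signals of Actg1 were 14.03 and 14.07 in vehicle C10, then 14.88 and 14.89 (3 h), 15.13 and 15.18 (12 h), 14.88 and 14.66 (24 h) and 13.60 and 13.66 (48 h). The signals rose from vehicle C10 to 12 h without overlap and ended below the vehicle arrays. Actg1 rose by 1.11 ± 0.08 (adjusted p = 2.8e-05) to 12 h and fell by 1.53 ± 0.08 (adjusted p = 3.1e-06) from 12 h to 48 h, a difference of -2.64 ± 0.14 (adjusted p = 5e-06). At 48 h it stood at -0.42 ± 0.08 (adjusted p = 0.003) against vehicle C10, a call that spike-in scaling turned to 0.34, or -0.05 relative to all genes. Its probe set is of a kind that can detect related transcripts, as are those used for Cfl1, Gsn, Coro1c, Myo1f and Myh9.

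Actb, the β-actin gene, had changes of at most 0.40 on its most intense probe set. Log2 signals of Actb were 14.84 and 14.84 in vehicle C10, then 15.12 and 15.01 (3 h), 15.10 and 15.14 (12 h), 15.17 and 15.17 (24 h) and 15.29 and 15.20 (48 h), near the highest value of any probe set, 15.65. All 8 estradiol arrays lay above both vehicle arrays. Actb rose by 0.22 ± 0.07 (adjusted p = 0.03) at 3 h and by 0.40 ± 0.07 (adjusted p = 0.0012) at 48 h, and its change from 12 h to 48 h was 0.12 ± 0.07 (adjusted p = 0.16). A second, dimmer probe set went the other way, by -1.25 at 48 h (adjusted p = 0.04 over all probe sets). The mean of both probe sets had -0.19 at 12 h, -0.23 at 24 h and -0.43 at 48 h, none of which passed. With p-values adjusted over all probe sets, the rise of the intense one at 3 h did not pass (adjusted p = 0.053).

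The array carries 3 further Actb probe sets as quality controls, for the 3′ end, the middle and the 5′ end of the transcript. The 3′ set read 15.04 and 15.03 in vehicle C10 and 15.22 to 15.47 in the estradiol arrays, and the 5′ set read 14.46 and 14.54 and 14.79 to 15.16. The linear 5′/3′ ratio, a sign of RNA integrity, was 0.610 ± 0.040 (SD, n = 2) in vehicle C10, 0.765 ± 0.027 at 3 h, 0.825 ± 0.033 at 12 h, 0.821 ± 0.024 at 24 h, 0.797 ± 0.00729 at 48 h and 0.716 ± 0.035 in HAFTL. The ratio of Gapdh was 1.17 ± 0.03 in vehicle C10, 1.25 ± 0.09 at 3 h, 1.21 ± 0.06 at 12 h, 1.18 ± 0.0027 at 24 h, 1.16 ± 0.03 at 48 h and 1.32 ± 0.06 in HAFTL. The 3 Gapdh control sets themselves also read higher in all estradiol arrays of C10 than in vehicle C10, the 3′ one with 14.46 to 14.62 against 14.01 and 14.08, so this was not particular to Actb. The Actb ratio moved with the same groups as the changes reported here, and its part in them was not tested.

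**Figure D3:**
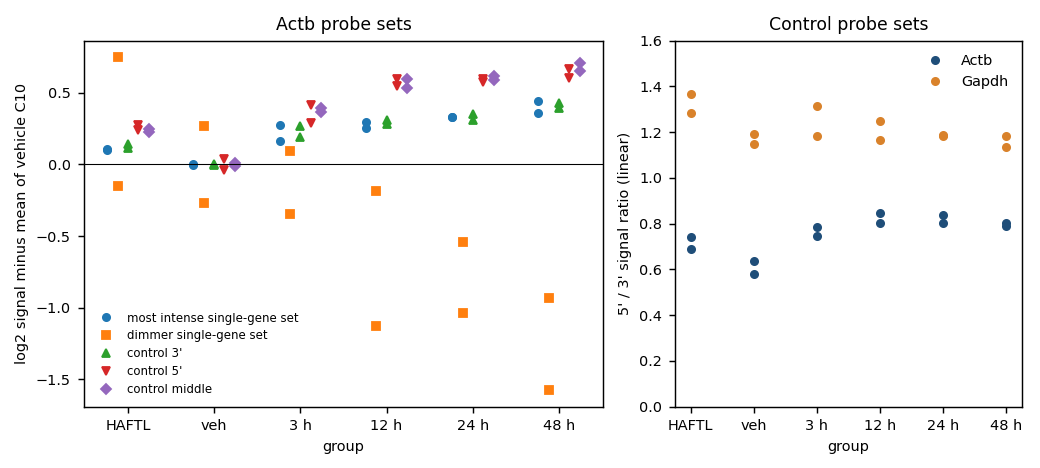
Left, log2 signal of the 5 Actb probe sets in each array less the mean of the vehicle C10 arrays; right, linear 5′/3′ signal ratio of the Actb and Gapdh control probe sets in each array. The 3 control sets and the most intense single-gene set lie above vehicle C10 in all estradiol arrays, while the dimmer set averages -1.25 at 48 h.

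Profilin genes parted. Pfn1, which encodes the common profilin that delivers actin monomers to growing ends, had log2 signals of 13.49 and 13.71 in vehicle C10, then 14.01 and 14.23 (3 h), 14.45 and 14.61 (12 h), 14.39 and 14.27 (24 h) and 13.97 and 14.08 (48 h). It rose by 0.94 ± 0.12 (adjusted p = 0.00038) to 12 h and fell by 0.51 ± 0.12 (adjusted p = 0.0071) from there to 48 h. Pfn2, best known as the profilin of nerve cells, had log2 signals of 11.90 and 11.76 in vehicle C10, then 10.91 and 10.94 (3 h), 9.13 and 9.11 (12 h), 6.12 and 5.68 (24 h) and 5.94 and 5.63 (48 h). Each later group lay below the one before it, except that 24 h and 48 h overlapped, both under the filter level of 6.22. Pfn2 fell by 0.91 ± 0.16 (adjusted p = 0.0024) at 3 h and by 2.71 ± 0.16 (adjusted p = 9.3e-06) at 12 h, and it was lower by at least 48.8-fold at 24 h (adjusted p = 1.9e-07) and at 48 h (adjusted p = 8e-08). All 3 Pfn2 probe sets were called lower at each of the 4 times. With HAFTL as the control, the change at 3 h turned to 0.29 and did not pass.

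Tmsb4x encodes thymosin β4, which holds actin monomers in reserve. Log2 signals of Tmsb4x were 14.32 and 14.35 in vehicle C10, then 14.15 and 14.12 (3 h), 14.92 and 14.90 (12 h), 15.29 and 15.24 (24 h) and 15.41 and 15.48 (48 h). The 3 h arrays were the lowest and the 48 h arrays the highest, and from 12 h on all arrays lay above vehicle C10. Tmsb4x rose by 0.57 ± 0.07 (adjusted p = 0.00042) at 12 h and by a further 0.54 ± 0.07 (adjusted p = 0.00044) from 12 h to 48 h. HAFTL was also higher than vehicle C10, by 0.76 ± 0.07 (adjusted p = 0.00094), and with HAFTL as the control the 12 h change turned to -0.19.

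By 12 h, 6 of the 9 nucleation genes had risen and 1 had fallen, beside 22.3% and 28.7% of all genes. At 48 h 5 were higher, beside 24.2%. The other 4 (Arpc2, Arpc4, Wasf2 and Evl) had changes of 0.10 to 0.41 at 48 h and did not pass on the probe set used. Each of these 4 genes had another, dimmer probe set that was called higher at 48 h. Diaph1, a formin that elongates unbranched filaments, had the largest rise of this group. Log2 signals of Diaph1 were 10.86 and 10.71 in vehicle C10, then 11.78 and 11.67 (3 h), 12.56 and 12.52 (12 h), 12.73 and 12.71 (24 h) and 12.82 and 12.90 (48 h). No estradiol group of C10 overlapped vehicle C10, and most of the climb fell between vehicle C10 and 12 h. Diaph1 rose by 0.94 ± 0.08 (adjusted p = 4.7e-05) at 3 h, 1.76 ± 0.08 (adjusted p = 2.1e-06) at 12 h and 2.08 ± 0.08 (adjusted p = 3.2e-07) at 48 h, with a late change of 0.32 ± 0.08. All 3 of its probe sets were called higher at each of those times.

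Of the Arp2/3 complex, 5 genes were tested. Arpc5, whose product stabilises the complex, had log2 signals of 13.42 and 13.34 in vehicle C10, then 13.55 and 13.58 (3 h), 14.39 and 14.45 (12 h), 14.19 and 14.35 (24 h) and 14.13 and 14.19 (48 h). Between 3 h and 12 h its signal rose by 0.86 ± 0.08 (adjusted p = 0.00025), and from 12 h to 48 h it fell by 0.26 ± 0.08 (adjusted p = 0.023). Arpc1a, one of a pair of alternative subunits of the complex, had log2 signals of 9.88 and 9.78 in vehicle C10, then 10.30 and 10.51 (3 h), 10.71 and 10.57 (12 h), 10.72 and 10.78 (24 h) and 10.62 and 10.80 (48 h). Arpc1a rose by 0.58 ± 0.11 (adjusted p = 0.003) at 3 h and 0.88 ± 0.11 (adjusted p = 0.00019) at 48 h, and its late change was 0.07 ± 0.11 (adjusted p = 0.63). Actr3, which encodes the actin-like subunit Arp3, rose by 0.43 ± 0.07 (adjusted p = 0.0018) at 12 h and 0.60 ± 0.07 (adjusted p = 2e-04) at 48 h. Arpc4 rose by 0.75 ± 0.15 (adjusted p = 0.0046) at 12 h and had 0.38 ± 0.15 (adjusted p = 0.061) at 48 h, where its other probe set was called higher with 0.35 (adjusted p = 0.037 over all probe sets). Arpc2, with Arpc4 part of the core of the complex, had 0.12 ± 0.08 (adjusted p = 0.23) on its most intense probe set, while a dimmer one rose by 1.58 at 48 h (adjusted p = 8.2e-06 over all probe sets).

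Was and Evl went down first. Was encodes WASP, the activator of Arp2/3 in blood cells. Log2 signals of Was were 11.45 and 11.31 in vehicle C10, then 10.86 and 11.02 (3 h), 11.40 and 11.33 (12 h), 11.79 and 11.79 (24 h) and 11.73 and 11.88 (48 h). It fell by 0.44 ± 0.10 (adjusted p = 0.009) at 3 h, a change that spike-in scaling turned to 0.33 (-0.30 relative to all genes), and rose by 0.43 ± 0.10 (adjusted p = 0.0074) at 48 h. Wasf2, an activator of the WAVE family, rose by 0.29 ± 0.08 (adjusted p = 0.017) at 12 h and had 0.10 ± 0.08 (adjusted p = 0.32) at 48 h. Its second probe set rose by 1.47 at 12 h and by 0.76 at 48 h (adjusted p = 0.00073 and 0.013 over all probe sets).

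Evl, a protein of the Ena/VASP family that protects growing filament ends, had the deepest early fall of the group. Log2 signals of Evl were 11.54 and 11.47 in vehicle C10, then 9.30 and 9.85 (3 h), 10.61 and 10.43 (12 h), 11.87 and 12.03 (24 h) and 11.75 and 12.07 (48 h), with the lowest arrays at 3 h. Evl fell by 1.93 ± 0.19 (adjusted p = 0.00012) at 3 h and rose by 1.40 ± 0.19 (adjusted p = 0.00042) from 12 h to 48 h, where it stood at 0.41 ± 0.19 (adjusted p = 0.096) against vehicle C10. The early direction depended on the control: HAFTL read 8.79 and 8.95, and against it Evl had 0.70 at 3 h and 1.65 at 12 h. Of its 4 tested probe sets, 3 were called lower at 3 h. At 48 h 2 of the dimmer ones were called higher, by 0.52 and 0.57 (adjusted p = 0.0033 and 0.021 over all probe sets).

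**Figure D4:**
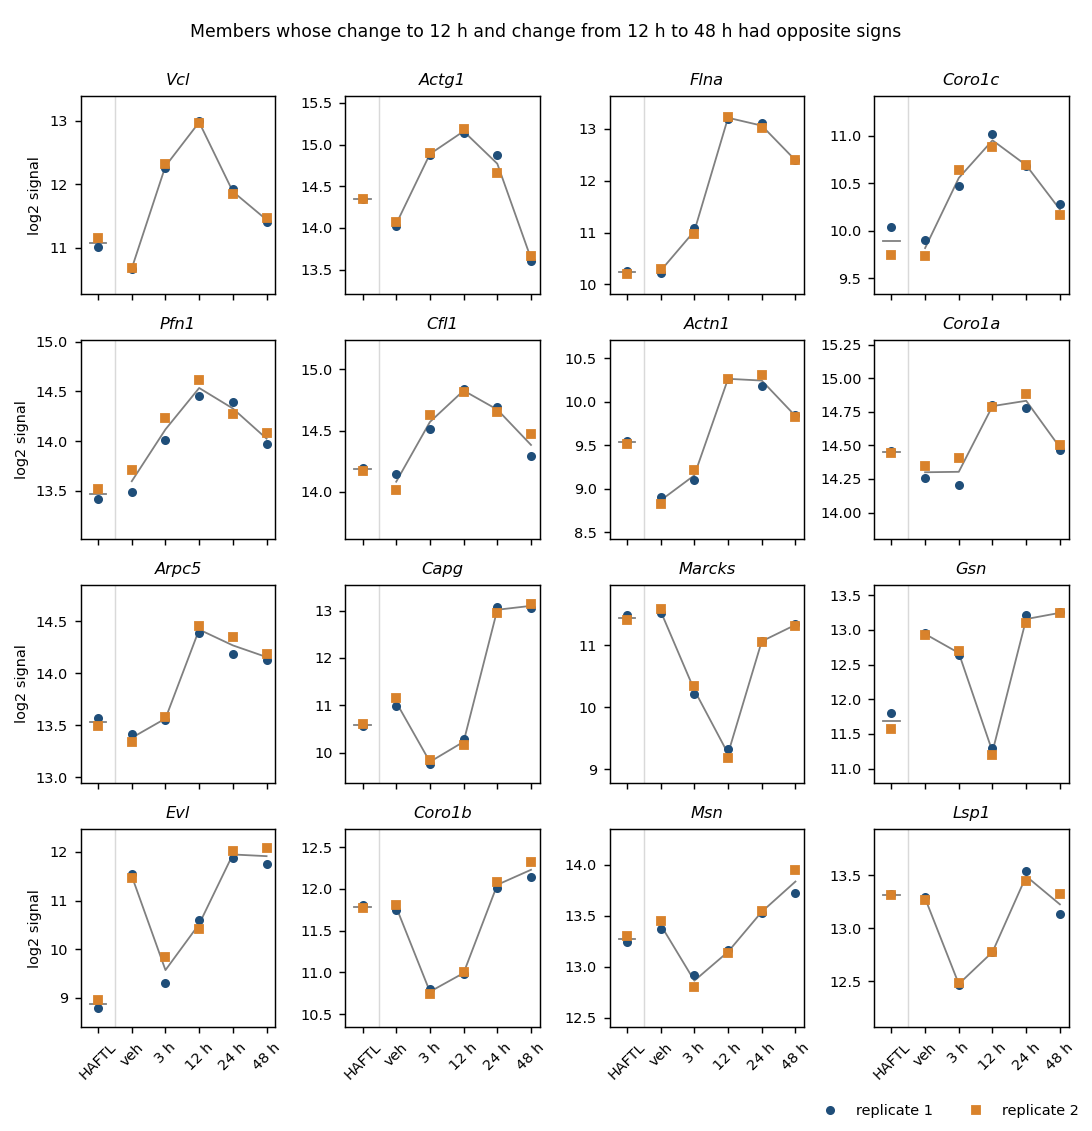
Log2 signal of both arrays of each group for the 16 genes whose early and late changes both passed with opposite signs; the line joins C10 group means and HAFTL stands apart at the left. The 9 genes that rose first are highest at 12 h, or for Actn1 and Coro1a about as high at 24 h, and the other 7 are lowest at 3 h or 12 h.

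The 6 genes of severing, capping and turnover split in equal parts at 12 h, with 3 higher and 3 lower, beside 22.3% and 28.7% of all genes. At 48 h 5 were higher, beside 24.2%, and Coro1a did not pass on the probe set used. Gsn encodes gelsolin, which cuts filaments and caps them. Log2 signals of Gsn were 12.95 and 12.93 in vehicle C10, then 12.64 and 12.69 (3 h), 11.30 and 11.19 (12 h), 13.22 and 13.09 (24 h) and 13.25 and 13.24 (48 h). The 12 h arrays were far below all others of C10. At 3 h Gsn fell by 0.27 ± 0.09 (adjusted p = 0.043), a call lost without any 1 of the 4 arrays involved, and spike-in scaling turned it to 0.61 (-0.02 relative to all genes). Gsn fell by 1.70 ± 0.09 (adjusted p = 6.3e-06) at 12 h and rose by 2.00 ± 0.09 (adjusted p = 1.4e-06) from 12 h to 48 h, a difference of 3.70 ± 0.16. HAFTL differed from vehicle C10 by -1.25 ± 0.09 (adjusted p = 0.00029), and against HAFTL the 3 h change was 0.98. The 4 most intense of its 6 probe sets were called lower at 12 h and higher from 12 h to 48 h. A dim one had 1.01 at 12 h and rose by 1.6 at 48 h (adjusted p = 0.075 and 0.0096 over all probe sets).

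Capg encodes the capping protein of macrophages, a relative of gelsolin that caps without cutting. Log2 signals of Capg were 10.98 and 11.15 in vehicle C10, then 9.76 and 9.85 (3 h), 10.30 and 10.16 (12 h), 13.08 and 12.96 (24 h) and 13.06 and 13.15 (48 h). The 3 h and 12 h arrays lay below vehicle C10 and the 24 h and 48 h arrays far above it. Capg fell by 1.26 ± 0.09 (adjusted p = 2.6e-05) at 3 h, rose by 2.79 ± 0.09 (adjusted p = 6.9e-07) from 12 h to 24 h and stood at 2.04 ± 0.09 (adjusted p = 8.1e-07) at 48 h. A much dimmer second probe set had -0.65 at 3 h and 0.77 at 48 h and did not pass.

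The 3 coronin genes, which guide filament turnover, had different courses. Coro1b, a coronin of many cell types, had log2 signals of 11.75 and 11.81 in vehicle C10, then 10.80 and 10.74 (3 h), 10.98 and 11.01 (12 h), 12.01 and 12.08 (24 h) and 12.14 and 12.32 (48 h). It fell by 1.01 ± 0.08 (adjusted p = 3.7e-05) at 3 h and rose by 1.06 ± 0.08 (adjusted p = 3e-05) from 12 h to 24 h, ending at 0.45 ± 0.08 (adjusted p = 0.0015) at 48 h. Coro1c went the opposite way, with log2 signals of 9.90 and 9.73 in vehicle C10, then 10.47 and 10.64 (3 h), 11.02 and 10.88 (12 h), 10.68 and 10.69 (24 h) and 10.28 and 10.17 (48 h). It rose by 1.13 ± 0.12 (adjusted p = 0.00018) at 12 h and fell by 0.73 ± 0.12 (adjusted p = 0.0015) thereafter. The mean of its 4 probe sets had -0.09 at 48 h in place of 0.41 ± 0.12. Coro1a, the coronin of blood cells, had log2 signals of 14.26 and 14.34 in vehicle C10, then 14.20 and 14.40 (3 h), 14.80 and 14.79 (12 h), 14.78 and 14.88 (24 h) and 14.47 and 14.50 (48 h), a rise of 0.49 ± 0.08 (adjusted p = 0.0019) at 12 h and a late fall of 0.31 ± 0.08; at 3 h its probe sets were called in both directions. The dimmest of its 3 probe sets rose by 1.67 at 48 h (adjusted p = 9.2e-06 over all probe sets) and had a late change of 0.25 that did not pass.

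Cfl1 encodes cofilin, the main severing protein of non-muscle cells. Log2 signals of Cfl1 were 14.15 and 14.01 in vehicle C10, then 14.51 and 14.63 (3 h), 14.84 and 14.81 (12 h), 14.69 and 14.65 (24 h) and 14.29 and 14.47 (48 h). All estradiol arrays lay above both vehicle arrays, and the highest were those at 12 h. Cfl1 rose by 0.75 ± 0.09 (adjusted p = 0.00027) at 12 h and fell by 0.44 ± 0.09 (adjusted p = 0.0032) from 12 h to 48 h. This probe set is of a kind that can detect related transcripts. A dimmer one had a late change of -0.35 that did not pass (adjusted p = 0.061 over all probe sets). At 48 h the dimmer one was higher by 0.96 (adjusted p = 0.00042 over all probe sets), against 0.30 on the set used.

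By 12 h, 4 of the 6 bundling and crosslinking genes had risen and 2 had fallen, beside 22.3% and 28.7% of all genes. By 48 h the counts were 4 and 1, beside 24.2% and 38.2%. Flna encodes filamin A, which ties filaments into loose nets and links them to integrins. Log2 signals of Flna were 10.23 and 10.30 in vehicle C10, then 11.08 and 10.98 (3 h), 13.19 and 13.24 (12 h), 13.11 and 13.02 (24 h) and 12.39 and 12.40 (48 h). Flna rose by 0.76 ± 0.07 (adjusted p = 9.8e-05) at 3 h and by a further 2.19 ± 0.07 (adjusted p = 4.1e-06) to 12 h, the largest rise of the 36 genes in that step. From 12 h to 48 h it fell by 0.82 ± 0.07 (adjusted p = 3.9e-05), and it stood at 2.13 ± 0.07 (adjusted p = 2.2e-07) above vehicle C10 at the end. HAFTL, at 10.26 and 10.21, differed from vehicle C10 by -0.03 ± 0.07 (adjusted p = 0.83).

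Lcp1 encodes L-plastin, the bundling protein of blood cells. Log2 signals of Lcp1 were 12.74 and 12.76 in vehicle C10, then 13.79 and 13.65 (3 h), 14.50 and 14.57 (12 h), 14.45 and 14.44 (24 h) and 14.40 and 14.62 (48 h). It rose by 0.97 ± 0.09 (adjusted p = 8.9e-05) at 3 h and 1.79 ± 0.09 (adjusted p = 4.1e-06) at 12 h, with a late change of -0.03 ± 0.09 (adjusted p = 0.83). Actn4, a non-muscle α-actinin, had log2 signals of 10.71 and 10.73 in vehicle C10, then 11.51 and 11.48 (3 h), 12.01 and 11.92 (12 h), 12.05 and 11.79 (24 h) and 12.28 and 12.15 (48 h), with rises of 0.77 ± 0.10 (adjusted p = 0.00046) at 3 h and 1.49 ± 0.10 (adjusted p = 5.9e-06) at 48 h. Its relative Actn1 read 8.91 and 8.82 in vehicle C10, then 9.09 and 9.21 (3 h), 10.26 and 10.27 (12 h), 10.18 and 10.31 (24 h) and 9.85 and 9.82 (48 h). Actn1 rose by 1.40 ± 0.08 (adjusted p = 6.1e-06) at 12 h and fell by 0.43 ± 0.08 (adjusted p = 0.0019) after 12 h, while the late change of Actn4 was 0.25 ± 0.10 (adjusted p = 0.066); the difference between the relatives was not tested. Against HAFTL, Actn1 had -0.38 at 3 h in place of 0.29 ± 0.08. The dimmer probe sets of Actn1 had late changes of 0.35 and -0.18, neither of which passed (adjusted p = 0.53 and 0.49 over all probe sets). Their changes at 3 h, 0.78 and -0.18, did not pass either. At 12 h they had 1.145 and 1.357, and only the latter passed (adjusted p = 0.06 and 0.00097 over all probe sets).

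Marcks, a substrate of protein kinase C that binds filaments and the membrane, had the widest swing of the 36 genes. Log2 signals of Marcks were 11.52 and 11.58 in vehicle C10, then 10.22 and 10.34 (3 h), 9.33 and 9.18 (12 h), 11.07 and 11.06 (24 h) and 11.34 and 11.32 (48 h). It fell by 1.27 ± 0.08 (adjusted p = 1.4e-05) at 3 h and 2.29 ± 0.08 (adjusted p = 7.3e-07) at 12 h and rose by 2.07 ± 0.08 (adjusted p = 5.3e-07) from 12 h to 48 h, so that late and early change differed by 4.37 ± 0.14 (adjusted p = 4.3e-07). Each of its 7 probe sets was called lower at 12 h and higher from 12 h to 48 h. At 48 h it stood at -0.22 ± 0.08 (adjusted p = 0.045), a call lost without any 1 of the 4 arrays involved (adjusted p = 0.084 to 0.17) and with the replicate block (adjusted p = 0.063). Spike-in scaling turned this to 0.33 (-0.05 relative to all genes).

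Lsp1, a filament-binding protein of white blood cells, had log2 signals of 13.29 and 13.27 in vehicle C10, then 12.46 and 12.48 (3 h), 12.77 and 12.77 (12 h), 13.54 and 13.44 (24 h) and 13.13 and 13.32 (48 h). It fell by 0.81 ± 0.08 (adjusted p = 0.00012) at 3 h and rose by 0.45 ± 0.08 (adjusted p = 0.0018) from 12 h to 48 h. Spike-in scaling turned its changes to 0.11 at 3 h and 0.42 at 12 h, which are -0.52 and -0.24 relative to all genes.

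Of the 6 genes of adhesion and membrane linkage, 4 were higher and 2 lower at 48 h, beside 24.2% and 38.2% of all genes. Vcl encodes vinculin, which reinforces the link between integrins and filaments, and its CArG box is printed above. Log2 signals of Vcl were 10.66 and 10.68 in vehicle C10, then 12.25 and 12.32 (3 h), 12.99 and 12.96 (12 h), 11.92 and 11.84 (24 h) and 11.41 and 11.47 (48 h). Vcl had the largest rise of the 36 genes at 3 h, 1.61 ± 0.08 (adjusted p = 3.7e-06), reached 2.31 ± 0.08 (adjusted p = 5.5e-07) at 12 h and fell by 1.54 ± 0.08 (adjusted p = 1.8e-06) from there to 48 h. Both of its probe sets were called higher at 12 h and lower from 12 h to 48 h.

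Zyx and Tln1 were called at 12 h and not at 3 h on the probe sets used. Zyx encodes zyxin, found at adhesion sites and on stressed filaments. Log2 signals of Zyx were 7.01 and 6.996 in vehicle C10, then 6.99 and 7.47 (3 h), 8.81 and 8.91 (12 h), 10.09 and 10.25 (24 h) and 10.31 and 10.56 (48 h). The 3 h arrays straddled those of vehicle C10 and every later group lay above them. Zyx rose by 1.86 ± 0.56 (adjusted p = 0.026) at 12 h and 3.44 ± 0.56 (adjusted p = 0.00097) at 48 h. The widest duplicates of Zyx were those of HAFTL, 4.86 and 6.95, which enter its standard error. Its call at 12 h was lost without any 1 of the 4 arrays involved (adjusted p = 0.079 to 0.091). Tln1 encodes talin, the integrin activator. Log2 signals of Tln1 were 11.27 and 11.15 in vehicle C10, then 11.35 and 11.16 (3 h), 11.93 and 12.02 (12 h), 12.71 and 12.74 (24 h) and 12.62 and 12.75 (48 h). It had 0.04 ± 0.11 (adjusted p = 0.78) at 3 h and rose by 0.76 ± 0.11 (adjusted p = 0.00078) at 12 h and 1.47 ± 0.11 (adjusted p = 1.1e-05) at 48 h. Both of its dimmer probe sets were called higher at 3 h, by 0.44 and 1.24 (adjusted p = 0.014 and 0.035 over all probe sets), and the former had 0.08 at 12 h.

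Of the 3 related linkers of filaments to the membrane, Rdx and Ezr were lower at 48 h and Msn was higher on the probe sets used. Rdx, which encodes radixin, had log2 signals of 12.26 and 12.37 in vehicle C10, then 12.42 and 12.32 (3 h), 12.18 and 12.18 (12 h), 10.98 and 11.01 (24 h) and 11.12 and 11.17 (48 h), with a drop between 12 h and 24 h of 1.18 ± 0.07. It fell by 1.17 ± 0.07 (adjusted p = 3.8e-06) at 48 h; one of its 3 probe sets rose by 1.27 at 3 h (adjusted p = 0.0015 over all probe sets) and had 0.01 at 48 h. Ezr, which encodes ezrin, had -0.08 ± 0.07 (adjusted p = 0.34) at 12 h and fell by 0.97 ± 0.07 (adjusted p = 6.9e-06) at 48 h. Msn encodes moesin, the main member in white blood cells. Log2 signals of Msn were 13.38 and 13.45 in vehicle C10, then 12.92 and 12.81 (3 h), 13.16 and 13.13 (12 h), 13.53 and 13.55 (24 h) and 13.72 and 13.95 (48 h). It fell by 0.55 ± 0.09 (adjusted p = 0.0018) at 3 h and rose by 0.42 ± 0.09 (adjusted p = 0.0042) at 48 h. Spike-in scaling turned its change at 3 h to 0.36 and that at 12 h to 0.67, or -0.28 and 0.01 relative to all genes. The dimmer probe set of Msn had -0.56 at 3 h, -0.27 at 12 h and 0.23 at 48 h. None of these passed (adjusted p = 0.071, 0.35 and 0.39 over all probe sets), nor did its late change of 0.50 (adjusted p = 0.09).

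Of the 3 myosin genes tested, 2 were higher at 24 h and at 48 h, beside 24.2% of all genes at each time. Myo1f, a single-headed myosin of white blood cells, had the largest rise of the 36 genes. Log2 signals of Myo1f were 7.65 and 7.67 in vehicle C10, then 7.37 and 7.58 (3 h), 9.03 and 9.26 (12 h), 12.08 and 12.18 (24 h) and 12.56 and 12.61 (48 h). The 3 h arrays read below both vehicle arrays without passing the test (-0.19 ± 0.19), and all later groups lay above. Myo1f rose by 1.48 ± 0.19 (adjusted p = 0.00046) at 12 h, by a further 2.98 ± 0.19 (adjusted p = 1.5e-05) to 24 h and to 4.92 ± 0.19 (adjusted p = 4.3e-07) at 48 h, with all 3 probe sets called higher at each of these times. HAFTL read 5.67 and 6.30, 1 array of them under the filter level, and against HAFTL the 3 h change was 1.49.

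Myo1g, another short-tailed myosin of blood cells, had log2 signals of 11.49 and 11.48 in vehicle C10, then 10.68 and 10.65 (3 h), 11.81 and 12.04 (12 h), 12.23 and 12.30 (24 h) and 12.00 and 12.08 (48 h). It fell by 0.82 ± 0.11 (adjusted p = 0.00069) at 3 h and rose by 0.78 ± 0.11 (adjusted p = 0.00061) at 24 h. Myh9, the heavy chain of non-muscle myosin II that contracts filaments, had log2 signals of 13.17 and 12.91 in vehicle C10, then 12.99 and 13.01 (3 h), 13.40 and 13.90 (12 h), 13.49 and 13.39 (24 h) and 12.87 and 13.61 (48 h). Its duplicates lay apart at 12 h and 48 h, and it had 0.61 ± 0.25 (adjusted p = 0.079) at 12 h and 0.20 ± 0.25 (adjusted p = 0.52) at 48 h. Of its 5 probe sets, 3 were called higher at 12 h and at 48 h, all of them dimmer than the one used. Vim, the intermediate filament gene of white blood cells and stroma, had log2 signals of 13.57 and 13.61 in vehicle C10, then 14.21 and 14.18 (3 h), 14.94 and 14.96 (12 h), 15.02 and 15.03 (24 h) and 15.12 and 15.18 (48 h). Vim rose by 0.61 ± 0.06 (adjusted p = 0.00013) at 3 h and 1.56 ± 0.06 (adjusted p = 4.2e-07) at 48 h, and its late change of 0.20 ± 0.06 turned to -0.05 with spike-in scaling (0.18 relative to all genes).

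**Figure D5:**
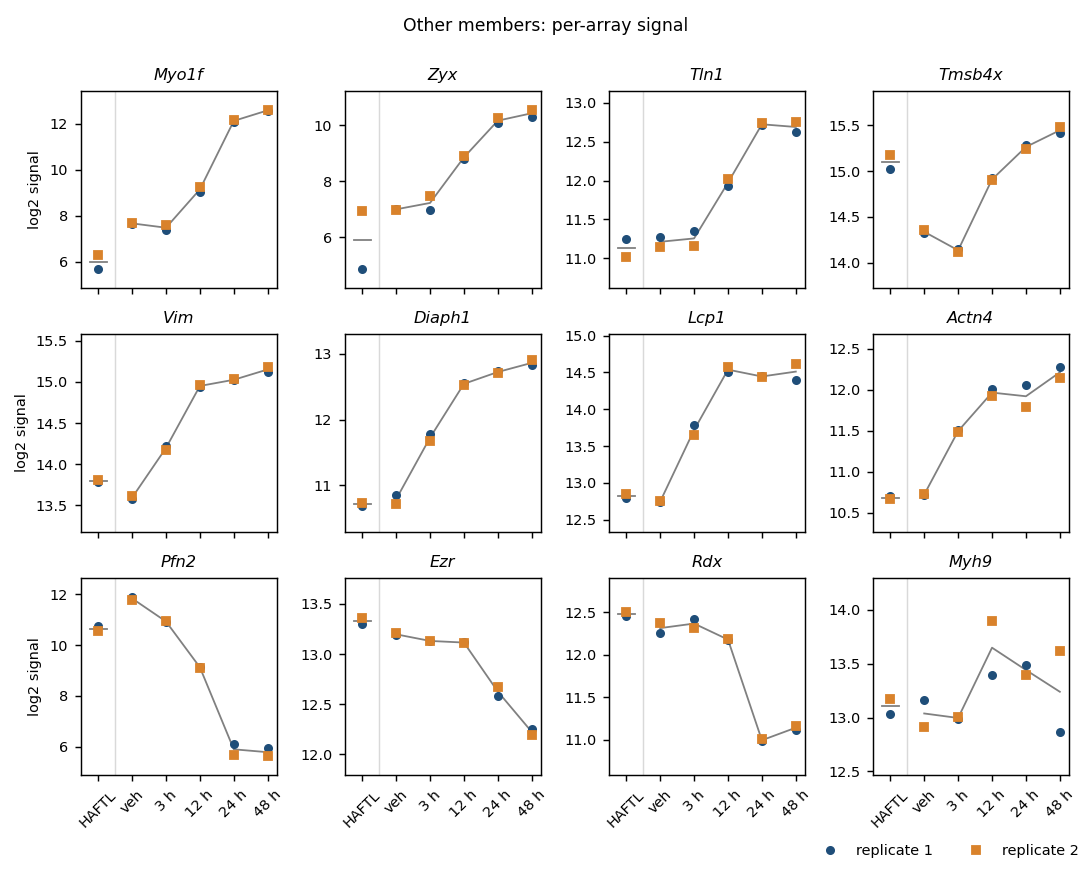
Log2 signal of both arrays of each group for 12 further genes; the line joins C10 group means and HAFTL stands apart at the left. On the probe sets plotted, the most intense of each gene, Myo1f, Zyx and Tln1 climb mainly after 3 h, Vim, Diaph1, Lcp1 and Actn4 from 3 h on, Pfn2 falls from 3 h and Ezr and Rdx after 12 h, and the duplicates of Myh9 lie apart at 12 h and 48 h.

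HAFTL is named as a control line in the study's design. Of the 36 genes, 3 were higher in HAFTL (Tmsb4x, Actn1 and Vcl), beside 7.11% of all genes, and 5 were lower (Evl, Myo1f, Gsn, Pfn2 and Capg), beside 8.12%, or 15.2% either way. Evl had the largest difference, -2.64 ± 0.19 (adjusted p = 0.00024), followed by Myo1f with -1.68 ± 0.19 (adjusted p = 0.002). Vcl was higher in HAFTL by 0.40 ± 0.08 (adjusted p = 0.013). The comparison holds both the difference between the lines and the estradiol given to HAFTL. Markers of other cell types also differed. The summed linear signal of the 5 megakaryocyte or platelet markers was 874.2 to 903.7 in HAFTL and 331.0 to 402.4 in vehicle C10, with Pf4 at 8.99 and 9.14 against 6.86 and 6.58 in log2 signal. That of the 7 fibroblast or stroma markers was 484.7 to 511.4 against 360.0 to 395.1. The 8 macrophage markers summed to 1754 to 1977 against 1290 to 1359, and the 9 pre-B cell markers to 130300 to 131000 against 116200 to 116900. The part of these markers in the differences was not tested.

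A wider list of 100 regulators of actin held 83 genes that were tested. Higher genes numbered 17, 35, 44 and 39 over the 4 times and lower genes 31, 23, 14 and 18, against the shares of all genes given above. Their median change was -0.08, 0.27, 0.36 and 0.25. Plek, the platelet and white cell protein pleckstrin, rose by 2.68 ± 0.11 (adjusted p = 5.6e-07) at 48 h, Dock8, an activator of Cdc42, by 2.28 ± 0.33 (adjusted p = 0.00049), and the formin Inf2 by 2.25 ± 0.11 (adjusted p = 1.4e-06).

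The largest falls of the wider list at 48 h included relatives of genes described above. Arpc5l, an alternative to Arpc5 in the Arp2/3 complex, had log2 signals of 13.60 and 13.57 in vehicle C10, then 12.17 and 12.30 (3 h), 11.96 and 11.94 (12 h), 11.62 and 11.55 (24 h) and 11.33 and 11.40 (48 h). It fell by 2.23 ± 0.07 (adjusted p = 2e-07) at 48 h, while Arpc5 stood 0.78 ± 0.08 higher. Diaph3, a formin related to Diaph1, read 9.14 and 9.11 in vehicle C10, then 10.55 and 10.56 (3 h), 10.88 and 10.62 (12 h), 9.17 and 9.36 (24 h) and 8.35 and 7.25 (48 h); it fell by 1.33 ± 0.30 (adjusted p = 0.0055) at 48 h after a rise of 1.43 ± 0.30 (adjusted p = 0.0056) at 3 h. Parvg, an integrin-linked adaptor of blood cells, fell by 1.66 ± 0.08 (adjusted p = 1.2e-06) and Cyfip2, a subunit of the WAVE complex, by 1.31 ± 0.12 (adjusted p = 4.2e-05). The differences between relatives were not tested.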

How the data were processed

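RNA extracted with Trizol was biotin-labelled for one-colour mouse arrays, per the labels. The authors' deposited values are linear signal intensities, as the range of values shows. Trimmed by 2% at each end, every array had a mean of 500, so the deposited intensities had been scaled. How they were summarised is not given in the sources used here. Array medians were 68.5 to 85.0. Log2 values of all 45101 probe sets were quantile-normalised, the 64 control probe sets set aside, and signals under 16 raised to 16. Genes came from the platform annotation, with Entrez IDs found in RefSeq for 34741 of 34945 single-gene probe sets, while 932 with several genes and 9160 with none were not used. For each of 18193 genes the probe set of highest mean stood in, and a gene was tested where log2 signal exceeded 6.22 (a signal of 74.6, the median of all values) in at least 2 arrays.

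limma (3.58.1, R 4.3.3) was fitted to all 12 arrays with a mean per group, two-sided, with Benjamini-Hochberg adjustment over 11696 genes. It had 6 residual and 1.53 prior degrees of freedom, and it was tested on simulated data. There, 59% of 100 log2 changes of 1 and 86% of 100 changes of 2 at 48 h were recovered, with 6 false calls. Far fewer genes were changed there than were called in the data. For a group whose arrays were both under 6.22, folds are lower bounds against that level. The alternatives were other scalings, floors, filters, probe set rules, a minimum change, HAFTL as control, a replicate block and leaving out each array. The number of arrays limits the precision.

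The genes, lists and tests were chosen with earlier results of these data known. Values per array are given for the 3 genes of each role with the largest change at 48 h and for genes with opposite early and late calls. Those of Actb and Was were added after they were seen. From the wider list, the 4 largest rises and the 4 largest falls at 48 h are named, except the largest rise, which is not reported here.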

Additional observations from a re-analysis of the deposited data

Results flagged for a closer look

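Outside the tests, only the control probe sets of Actb and Gapdh and the 2 sets shared by Arpc1b and Gm5637 were examined. All 3 Actb and all 3 Gapdh control sets were higher in each of the 8 estradiol arrays of C10 than in both vehicle arrays. So was 1 of the 2 shared sets. The share of all probe sets for which this holds was not counted. The mean log2 difference was 0.32 for the 3′ control set of Actb, 0.56 for the middle one and 0.54 for the 5′ one, and 0.51, 0.69 and 0.60 for the same sets of Gapdh. The middle set read 14.52 to 14.54 in vehicle C10 and 14.90 to 15.23 in the estradiol arrays. The shared probe set differed by 0.85, with 7.54 and 8.18 in vehicle C10 and 8.20 to 9.24 in the estradiol arrays. Its nearest arrays lay close together, one of vehicle C10 at 8.18 and one of 3 h at 8.20. None of these differences was tested.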

How the results depend on the processing

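Arrays with the same number in different groups did not deviate together (correlations of -0.034 to 0.042 over 15 pairs of groups). This cannot show whether they were handled together, since scaling takes out shifts of a whole array, and the labels do not say. A replicate block left the calls among the 36 genes nearly as they were. Lower genes numbered 7 (12 h) and 4 (48 h) in place of 8 and 5, and from 24 h to 48 h 7 genes passed in place of 11. That last step also gave 6 with median centring, 7 without the filter, 5 with only the groups compared, 5 with probe sets averaged per gene and 5 to 7 when an array was left out. From 3 h to 12 h, leaving out an array gave 17 to 21 in place of 26. The other counts stayed within 1.5 times when an array was left out. Of 138 single-gene calls against vehicle C10 or from 12 h to 48 h, 22 were lost when at least 1 array was left out, with the direction kept. Beside those named in the report, they were Pfn1, Was, Actb and Actn1 at 3 h, Actb, Wasf2 and Myo1g at 12 h, Coro1b and Was at 24 h, Gsn, Cfl1, Coro1c, Pfn1 and Was at 48 h, and the late rises of Vim and Zyx. A pseudocount of 16 moved none of the 180 values of single genes across the threshold or zero.

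With spike-in scaling the 36 genes gave 0 lower calls by limma at 3 h (1 at an unadjusted p under 0.05), 2 at 12 h, and 1 each at 24 h and 48 h, with 14 higher calls at 24 h. In the wider list, lower calls numbered 4 (3 h), 1 (12 h), 2 (24 h) and 1 (48 h), and 19 genes were higher at 24 h. Of the steps, the first (3 h to 12 h) had 3 calls, the next 7 and the last 0, also 0 unadjusted. The late change gave 4 higher and 4 lower, late minus early 3 and 10, and HAFTL 0 (1 unadjusted) and 1. Spike-in scaling turned Gsn (0.61), Lsp1 (0.11), Msn (0.36) and Was (0.33) at 3 h, Lsp1 (0.42) and Msn (0.67) at 12 h, Actg1 (0.34) and Marcks (0.33) at 48 h, and the late change of Vim (-0.055). None of these turned values passed.

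Averaging probe sets per gene left 3 of the 36 lower at 48 h, 1 higher in HAFTL, and 11 of the wider list lower at 12 h. It turned Arpc2 at 3 h (0.32), Actb at 12 h (-0.19), 24 h (-0.23) and 48 h (-0.43), Rdx at 12 h (0.36), and Coro1c (-0.0908) and Marcks (0.016) at 48 h. With HAFTL as the control, 3 h values turned for Actn1 (-0.38), Evl (0.70), Gsn (0.98), Myo1f (1.49) and Pfn2 (0.29), and 12 h values for Evl (1.65) and Tmsb4x (-0.19). With every probe set in the fit, 31 of the wider list were higher at 3 h. In HAFTL, 6 of the 36 were higher with the filter at the 70th percentile and 5 with a floor of 64.

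A test against a minimum log2 change of 1 (limma's treat) left, of the 36, 1 higher and 1 lower (3 h), 6 and 3 (12 h), 9 and 2 (24 h), and 9 and 1 (48 h). In the wider list it left 4 and 5, 8 and 2, 7 and 2, and 9 and 2. Of the steps, it left 2 in the first, 5 in the next and 0 in the last, also 0 unadjusted. It left 4 and 3 for the late change, 5 and 7 for late minus early, and 0 (also 0 unadjusted) and 1 in HAFTL. Apart from the minimum change, which is stricter by construction, the cause of these shifts was not tested. The shares of all genes called were not counted for this test or the other alternatives of this section. The counts here therefore cannot be set against those of genes in general. Signals near the floor limit what can be said of Pfn2 after 12 h, of Zyx in HAFTL and of Myo1e.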
